A study of Mus musculus with 12 samples.

Results

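Transcript levels of 10 growth factor genes were followed in G1 fibroblasts during treatment with difluoromethylornithine (DFMO). The set holds 7 receptor tyrosine kinases (Pdgfra, Pdgfrb, Fgfr1, Fgfr2, Egfr, Erbb2 and Met) and 3 ligands of the PDGF family (Pdgfa, Pdgfb and Pdgfc). Members were chosen by gene symbol, and a gene with several transcript clusters on the array was to enter through its brightest cluster by mean level. Each of the 10 had 1 cluster carrying its symbol alone, so all 10 of 19938 genes tested could be described. NIH3T3 is an established mouse fibroblast line, and DFMO blocks ornithine decarboxylase, the first enzyme of polyamine synthesis. The groups were untreated cells (3 arrays, 0 h) and cells in 1 mM DFMO for 12 h (2 arrays), 24 h (3), 48 h (2) and 96 h (2). All cells were sorted for G1, and the labels call the arrays of a group biological replicates without saying how the cultures were made. No untreated culture of a later hour was analysed here, so time in culture cannot be told apart from exposure to the drug.

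Receptor tyrosine kinases sit in the cell membrane and pass on growth factor signals by phosphorylating themselves and their adaptors once a ligand brings receptor chains together. Platelet-derived growth factors act mainly on cells of mesenchymal origin and are classical mitogens of cultured fibroblasts, fibroblast growth factors bind their receptors together with heparan sulfate, and Met is the receptor of hepatocyte growth factor. The EGF receptor pairs with itself or with Erbb2, which has no ligand of its own.

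Values are log2 levels after RMA (background correction, quantile normalisation and probe summary by the authors), and a difference of 1 is a factor of 2 on the scale of the array. Array medians lay between 4.13 and 4.20, and arrays of the same group had Pearson r of 0.994 to 0.998 over all genes. Of 10 fibroblast markers, Vim had a mean of 12.30 in untreated cells and Fap 3.44. The summed log2 level of the list ran from 101 to 102 on untreated arrays and from 97.7 to 98.8 at 96 h. At 96 h 1 marker was called higher and 5 lower, beside 11.8% and 10.1% of all genes. Thy1 had means of 8.32 untreated and 5.97 at 96 h, Col1a1 of 11.59 and 10.62, and Fn1 of 11.68 and 12.39. The 9 measured markers of leukocytes had summed levels of 33.3 to 34.0 in untreated cells and of 35.4 to 35.6 at 96 h. Lyz2 rose, by 1.90 at 96 h (limma adjusted p = 0.00137), while the defining leukocyte gene Ptprc had means of 3.36 and 3.35. The 7 epithelial and 7 endothelial markers summed to 29.9 to 30.4 and 24.8 to 25.0 in untreated cells, against 28.7 and 25.2 to 25.3 at 96 h. Among them Krt14 fell (means 8.83 and 7.01), and Cdh1 (4.04 and 4.62) and the endothelial Tek (3.37 and 3.71) rose. The median untreated level of the leukocyte markers, 3.59, was taken as the level of background. The proliferation markers (9 measured) fell most, from a summed log2 level of 85.2 to 86.8 in untreated cells to 77.7 to 78.6 at 48 h and 53.3 to 53.6 at 96 h. The part of these shifts in the results below was not tested, and in bulk RNA fewer cells of a kind and less RNA per cell cannot be told apart.

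At 96 h, 2 of the 10 genes had risen and 2 had fallen. Fgfr1 rose by 1.30 ± 0.19 (log2 change with limma's standard error, 2.46-fold) and Pdgfa by 1.17 ± 0.14 (2.25-fold). Pdgfra fell by 0.98 ± 0.23 (1.98-fold) and Met by 0.82 ± 0.11 (1.76-fold). In the fit over all 19938 genes 11.8% were called higher and 10.1% lower at 96 h, 21.9% in all, at a limma adjusted p under 0.05. The members' median log2 change at that time was -0.01, against 0.00 over all genes. No member was called at the earlier times, 0 of 10 each at 12, 24 and 48 h, against 0%, 0% and 5.82% of all genes (2.65% higher and 3.17% lower at 48 h). Between 24 h and 48 h 0 members were called, against 1.67% of all genes (0.527% higher, 1.14% lower). Between 48 h and 96 h Pdgfa rose and Met fell, against 8.64% of all genes (4.35% higher, 4.29% lower). By unadjusted p under 0.05 against untreated cells, limma marked 0, 0, 4 and 7 of the 10 members at 12, 24, 48 and 96 h. Of all 19938 genes these counts were 741, 1579, 3947 and 5979. The F test over all 4 times called 4 of 10, against 17% of all genes, and these were Pdgfa, Met, Fgfr1 and Pdgfra. This count became lower without either 96 h array, and so did the count over all genes.

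**Figure D1:**
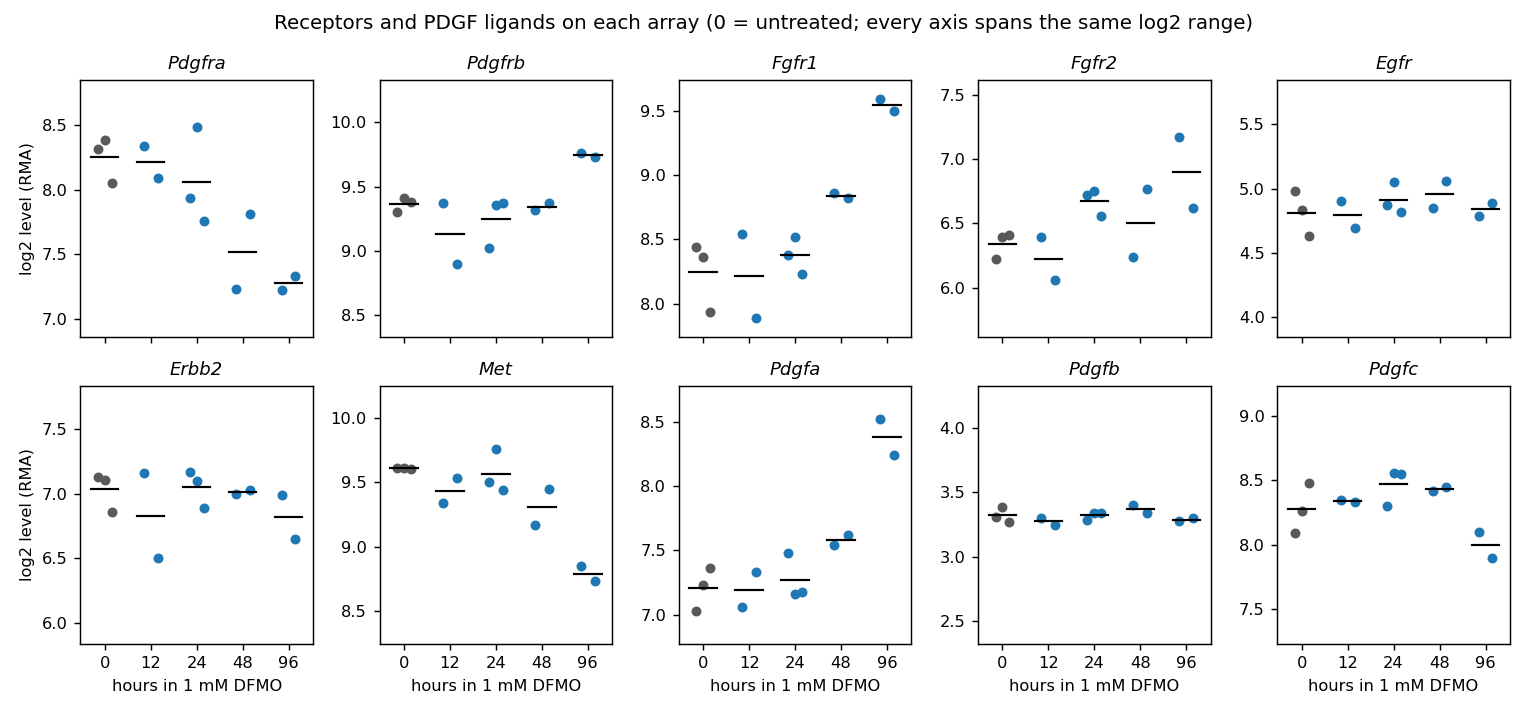
Log2 level of each of the 10 genes on each of the 12 arrays (points; grey, untreated; blue, DFMO) by hours in DFMO, with the group mean as a bar; every panel spans the same log2 range. Fgfr1 and Pdgfa are highest on the 2 arrays of 96 h, Met is lowest there, and Pdgfb stays between 3.25 and 3.40.

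Of the 4 genes called at 96 h, 3 have a promoter in the RefSeq table used here (build GRCm38.p6), and the 250 bases before the start are shown for them because 2 of these genes fell and the third rose at the same time. For Pdgfa the start farther upstream was taken from 2 listed. Capitals mark matches to 5 short motifs searched on both strands, which are the GC box (GGGCGG), the CCAAT box (CCAAT), the TATA box (TATAAA), the E-box (CACGTG) and the AP-1 site (TGANTCA). No match overlapped a match of another motif.
Pdgfra, chr5:75152001-75152250, plus strand: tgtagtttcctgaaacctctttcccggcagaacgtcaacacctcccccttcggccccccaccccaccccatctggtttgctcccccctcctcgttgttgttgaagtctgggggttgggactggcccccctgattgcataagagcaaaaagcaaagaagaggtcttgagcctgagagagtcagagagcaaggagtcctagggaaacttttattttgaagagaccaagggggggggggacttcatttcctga
Met, chr6:17463707-17463956, plus strand: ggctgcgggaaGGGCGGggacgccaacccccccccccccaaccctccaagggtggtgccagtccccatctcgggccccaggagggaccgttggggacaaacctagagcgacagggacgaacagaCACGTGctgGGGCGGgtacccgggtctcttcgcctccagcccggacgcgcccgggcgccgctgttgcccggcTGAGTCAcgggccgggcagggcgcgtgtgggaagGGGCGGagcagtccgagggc
Pdgfa, chr5:138994945-138995194, minus strand: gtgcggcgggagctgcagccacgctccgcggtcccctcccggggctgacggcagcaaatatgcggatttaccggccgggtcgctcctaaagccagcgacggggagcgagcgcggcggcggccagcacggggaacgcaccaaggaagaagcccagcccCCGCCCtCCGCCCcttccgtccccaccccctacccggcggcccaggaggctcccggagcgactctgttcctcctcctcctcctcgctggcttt
Met had 3 GC boxes, 1 E-box and 1 AP-1 site in this window, Pdgfa had 2 GC boxes, and Pdgfra had 0 matches. Among all 32851 windows of this length, 32.7% held a GC box, 33.8% a CCAAT box, 12.4% a TATA box, 6.02% an E-box and 6.75% an AP-1 site. The share of G and C was 54.4% for Pdgfra, 74.0% for Met and 72.4% for Pdgfa, against a median of 52.4% over all windows. A match is a description of letters, and the arrays do not measure what binds there.

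Pdgfra encodes the alpha receptor, which binds the A, B and C chains of PDGF. Its log2 levels were 8.32, 8.39 and 8.05 on the untreated arrays, 8.34 and 8.09 at 12 h, then 7.94, 8.49 and 7.76 at 24 h, 7.23 and 7.81 at 48 h, and 7.22 and 7.33 at 96 h. Both arrays of 48 h and both of 96 h lay below all untreated ones, while the arrays of 12 h and 24 h overlapped them. At 96 h the mean was 7.27 ± 0.08 (SD, n = 2) against 8.25 ± 0.18 (n = 3), and limma gave an adjusted p of 0.0110. The change at 48 h was -0.73 ± 0.23 (adjusted p = 0.0989), with replicate 1 as low as the 96 h arrays and replicate 2 nearer to untreated cells. Whether 48 h or 96 h was lower could not be told at this spread, at a change between them of -0.25 (95% interval -0.81 to 0.30). The 96 h call was lost without replicate 1 of that group (-0.93, adjusted p = 0.0788) and without replicate 2 (-1.04, adjusted p = 0.0516). The replicate number as a block turned the 48 h change into a call (-0.86, adjusted p = 0.0302), as did the filter on dim genes (0.0386), array weights (0.0308) and leaving out 24 h replicate 2 (0.0427).

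Pdgfrb encodes the beta receptor, whose main ligand is the B chain. Its log2 levels were 9.30, 9.41 and 9.38 untreated, 9.37 and 8.90 at 12 h, then 9.02, 9.36 and 9.37 at 24 h, 9.32 and 9.37 at 48 h, then 9.76 and 9.73 at 96 h. The 2 arrays of 96 h lay above all others, and the other times overlapped untreated cells. The 96 h change of 0.38 (95% interval 0.07 to 0.69) did not pass the test over all genes (limma adjusted p = 0.0879). It was called at adjusted p = 0.00831 with only the 2 groups in the fit, at 0.0461 with array weights, and without either 12 h array (0.0281) or 24 h replicate 1 (0.0481).

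The arrays also give the receptors' levels relative to each other. The log2 difference of Pdgfra minus Pdgfrb on each array was -0.98, -1.03 and -1.33 untreated, -1.04 and -0.81 at 12 h, then -1.08, -0.87 and -1.61 at 24 h, -2.08 and -1.56 at 48 h, and -2.55 and -2.40 at 96 h. The 96 h arrays lay below all others, and those of 24 h and 48 h overlapped. Its size has no meaning of its own, since 2 clusters are compared. A shift shared by all genes of an array cancels in it, but scaling that depends on level, such as quantile normalisation, does not. The change from untreated cells to 96 h was -1.36, from -1.11 ± 0.19 (SD, n = 3) to -2.48 ± 0.10 (n = 2). Pairs were chosen after their values were seen, so no test is given. The same difference for Fgfr1 minus Fgfr2 went from 1.91 ± 0.35 to 2.65 ± 0.33, and for Fgfr1 minus Pdgfra from -0.01 ± 0.12 to 2.28 ± 0.14.

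Fgfr1, the FGF receptor typical of mesenchymal cells, rose over the later times. Its log2 levels were 8.44, 8.36 and 7.94 untreated, 8.54 and 7.89 at 12 h, then 8.38, 8.52 and 8.23 at 24 h, 8.86 and 8.82 at 48 h, and 9.59 and 9.50 at 96 h. The arrays of 96 h lay above those of 48 h, which lay above all earlier ones, and the 3 earlier groups overlapped. At 96 h the mean was 9.55 ± 0.06 (SD, n = 2) against 8.25 ± 0.27 (n = 3), with a limma adjusted p of 0.000984. The changes of 0.59 at 48 h (adjusted p = 0.118) and of 0.71 from 48 h to 96 h (adjusted p = 0.0757) did not pass. The step from 48 h to 96 h was called with the replicate block (adjusted p = 0.0343), with the filter on dim genes (0.0301) and with only the 2 groups in the fit (0.0121). It was also called without either 12 h array (0.0264) or untreated replicate 3 (0.0487), and the 48 h change without either 12 h array (0.0480). Untreated replicate 3, 12 h replicate 2 and 24 h replicate 3 were each the lowest of their group for this gene, and without these 3 arrays, chosen after the data were seen, the 96 h change was 1.15 (adjusted p = 0.000132).

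Fgfr2, whose splice forms bind different FGFs, had log2 levels of 6.22, 6.39 and 6.41 untreated, 6.39 and 6.06 at 12 h, then 6.72, 6.75 and 6.56 at 24 h, 6.24 and 6.77 at 48 h, and 7.17 and 6.62 at 96 h. The arrays of 24 h and of 96 h lay above all untreated ones, and those of 48 h did not. The change at 96 h was 0.55 (95% interval 0.13 to 0.98) and did not pass (limma adjusted p = 0.0688), and the change at 24 h was 0.34 (adjusted p = 0.669). The 96 h change passed with the filter on dim genes (adjusted p = 0.0267), with trend and robust moderation (0.0463) and with array weights (0.0464). It also passed without either 48 h array (0.0439) or 96 h replicate 2 (0.83, adjusted p = 0.0245). One cluster sums over the exons of a gene, so splice forms of either FGF receptor were not told apart.

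Egfr, the receptor of EGF, had log2 levels between 4.63 and 5.06 on the 12 arrays. Its change at 96 h was 0.02 with a 95% interval of -0.24 to 0.29, and every group overlapped the next in level. Erbb2, the partner receptor, had levels from 6.50 on 12 h replicate 2 to 7.17 on 24 h replicate 1, with a 96 h change of -0.22 (-0.63 to 0.19). Neither passed at any time. A second cluster that carries the symbol of Erbb2 together with another gene was left out.

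Met fell at 96 h. Its log2 levels were 9.61, 9.61 and 9.60 untreated, 9.34 and 9.53 at 12 h, then 9.50, 9.76 and 9.44 at 24 h, 9.17 and 9.45 at 48 h, and 8.85 and 8.73 at 96 h. The 96 h arrays lay below all others, and those of 12 h and 48 h lay below all untreated arrays but overlapped those of 24 h. The mean at 96 h was 8.79 ± 0.09 (SD, n = 2) against 9.61 ± 0.00 (n = 3), with a limma adjusted p of 0.000588. From 48 h to 96 h it fell by 0.52 ± 0.12 (adjusted p = 0.0295). This step was not called with all clusters tested together (adjusted p = 0.0516) or only the 2 groups fitted (0.0713). It was also lost without 48 h replicate 2 (-0.38, adjusted p = 0.175), 96 h replicate 1 (0.0803), 96 h replicate 2 (0.148) or untreated replicate 1 (0.0506).

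**Figure D2:**
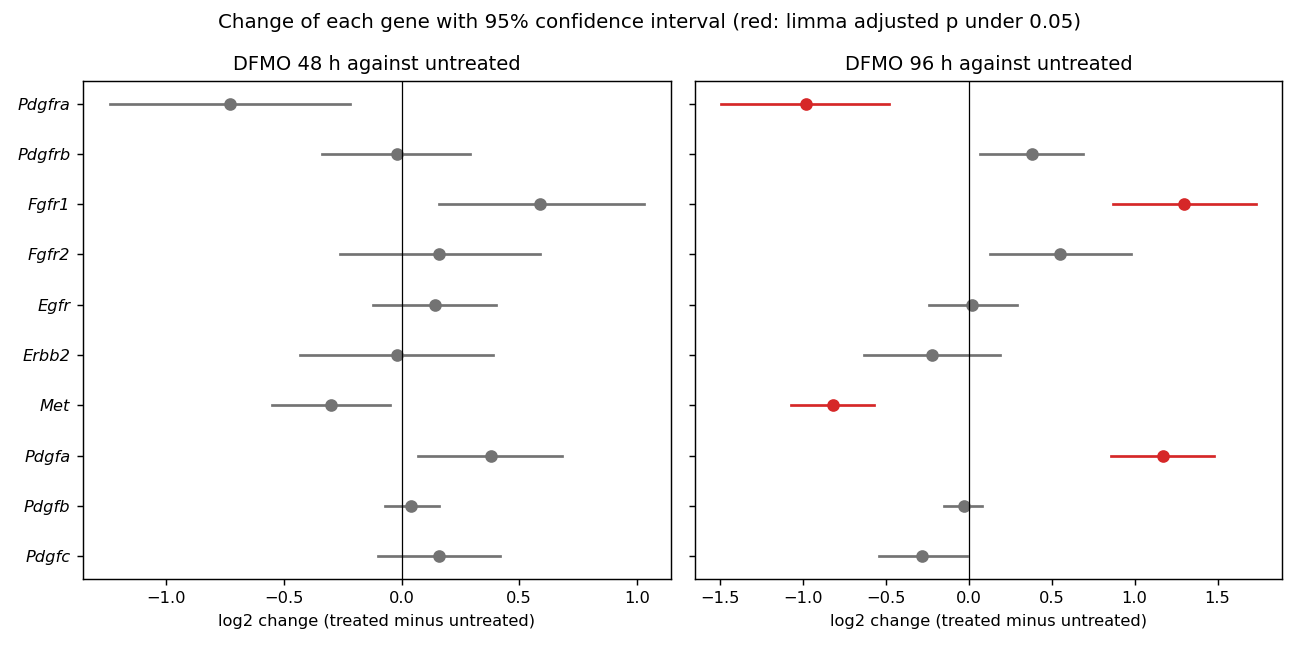
Log2 change of each gene at 48 h and at 96 h against untreated cells (points) with the 95% confidence interval of the limma fit (lines); red marks an adjusted p under 0.05. At 48 h no gene is red, and at 96 h Fgfr1 (1.30) and Pdgfa (1.17) lie to the right of 0 and Pdgfra (-0.98) and Met (-0.82) to the left.

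Pdgfa, which encodes the A chain of PDGF, rose at 96 h. Its log2 levels were 7.03, 7.23 and 7.36 untreated, 7.06 and 7.33 at 12 h, then 7.48, 7.16 and 7.18 at 24 h, 7.54 and 7.62 at 48 h, and 8.52 and 8.24 at 96 h. The arrays of 48 h lay above all earlier ones and those of 96 h above those of 48 h. The mean at 96 h was 8.38 ± 0.20 (SD, n = 2) against 7.21 ± 0.17 (n = 3), with a limma adjusted p of 0.000231. Most of the rise came after 48 h, with a change of 0.38 at 48 h (adjusted p = 0.159) and a rise of 0.80 ± 0.15 from 48 h to 96 h (adjusted p = 0.0106). That step was lost without 48 h replicate 1 (0.76, adjusted p = 0.0790) and without 96 h replicate 1 (0.66, adjusted p = 0.0833), while the change against untreated cells was called in all 12 fits that left out 1 array.

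Pdgfc encodes the C chain, which is secreted with a domain that proteases such as tissue plasminogen activator remove. Its log2 levels were 8.09, 8.26 and 8.48 untreated, 8.35 and 8.33 at 12 h, then 8.30, 8.56 and 8.55 at 24 h, 8.42 and 8.45 at 48 h, and 8.10 and 7.90 at 96 h. The 96 h arrays lay below those of 12, 24 and 48 h and overlapped untreated ones. The 96 h change was -0.28 (limma adjusted p = 0.148), and the change from 48 h to 96 h was -0.44 (adjusted p = 0.0722). The latter passed with the replicate block (0.0406), array weights (0.0466), centred arrays (0.0472) and repeated quantile normalisation (0.0323), and without untreated replicate 3 (0.0392).

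Pdgfb, the B chain and the ligand of both receptors, stayed between 3.25 and 3.40 on all 12 arrays, below the 3.59 taken as background. The 96 h change of Pdgfb was -0.03 (95% interval -0.15 to 0.08), and a change under the background would not be seen. At 96 h, 4 of the 10 genes had both arrays above all untreated ones (Pdgfrb, Fgfr1, Fgfr2 and Pdgfa) and 2 had both below (Pdgfra and Met). Over all genes these shares were 23% and 21.4%. At 12 h the members counted 0 above and 1 below (6.35% and 11.7% of all genes), at 24 h 1 and 0 (4.48% and 9.26%), and at 48 h 2 and 2 (15.7% and 25.2%). Of the steps, 24 h to 48 h had 2 above and 0 below (12.5% and 14.6%) and 48 h to 96 h had 3 and 4 (33.9% and 20.5%).

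Among the 4 called genes, levels over the 12 arrays went together as the times did. The Pearson correlation was 0.85 for Pdgfra with Met and 0.83 for Fgfr1 with Pdgfa, and between the falling and the rising genes it was -0.69 for Pdgfra with Fgfr1, -0.82 for Pdgfra with Pdgfa, -0.85 for Met with Fgfr1 and -0.86 for Met with Pdgfa. All points share the 5 groups and the arrays, so these values describe the time course and carry no test. Of 3391 other genes called by the F test, those most like Pdgfa over the 12 arrays were Fst (r = 0.983), Ubl3 (0.977) and Atg14 (0.971). Fst, which encodes follistatin, a secreted antagonist of activin, had a 96 h change of 1.98. Most like Met were Pik3cb (0.979), Itga3 (0.978), an integrin subunit with a 96 h change of -2.02, and Ppa1 (0.976), an inorganic pyrophosphatase. Most like Fgfr1 were Tom1l2 (0.993), Atp6v1f (0.988), a subunit of the vacuolar proton pump with a 96 h change of 1.93, and Dpp8 (0.983).

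Of the other receptors of these families, 1 of 10 fell at 96 h and 0 rose, beside 10.1% and 11.8% of all genes. Pdgfrl, a secreted protein related to the PDGF receptors, had log2 levels of 7.77, 7.47 and 8.06 untreated, 7.30 and 7.10 at 48 h, and 6.69 and 6.76 at 96 h. All arrays of both late times lay below the untreated ones. It fell by 1.04 ± 0.23 at 96 h (limma adjusted p = 0.00959), a call lost without 96 h replicate 1 (adjusted p = 0.0676) and without 96 h replicate 2 (0.0509). With the replicate block the list had 2 calls. Fgfrl1, an FGF receptor without a kinase domain, had a change of -0.39 (adjusted p = 0.0935). Values were 0.07 (0.812) for Erbb3, which pairs with Erbb2, and 0.04 (0.628) for Fgfr3, whose untreated mean was 3.65. Fgfr4 (3.66), Erbb4 (3.47), Mst1r (3.56), Kit (3.51), Csf1r (3.82) and Flt3 (3.47) also lay near background. Changes of genes so dim would hardly be seen.

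Of 31 other ligands measured, 1 rose and 2 fell at 96 h, beside 11.8% and 10.1% of all genes. At 48 h 0 were called, 1 with the filter on dim genes, 2 with array weights and 0 to 1 with 1 array left out. Fgf7, the keratinocyte growth factor that mesenchymal cells secrete for epithelia, had log2 levels of 10.63, 10.58 and 10.28 untreated, 9.98 and 10.31 at 48 h, and 9.07 and 9.36 at 96 h. It fell by 1.28 ± 0.13 (2.42-fold, limma adjusted p = 0.000111), with both 96 h arrays below all others. Hbegf, a heparin-binding ligand of the EGF receptor, had levels of 6.46, 6.94 and 7.34 untreated, 6.77 and 6.82 at 48 h, and 5.55 and 5.27 at 96 h. It fell by 1.50 ± 0.26 (2.83-fold, adjusted p = 0.00233), and its 48 h arrays lay inside the untreated range. Nrg1, a neuregulin that binds Erbb3 and Erbb4, had levels of 5.51, 5.53 and 5.68 untreated, 5.68 and 5.86 at 48 h, and 6.43 and 6.34 at 96 h. It rose by 0.81 ± 0.12 (1.76-fold, adjusted p = 0.000754). Ereg, epiregulin, was above all untreated arrays at 48 h (5.79 and 6.23 against 5.02 to 5.38), at a change of 0.75 that did not pass (adjusted p = 0.126). The median change of the ligands at 96 h was 0.01. Only Fgf7, Fgf10, Hbegf, Ereg and Nrg1 had untreated means above 5, and many others lay near the 3.59 taken as background. Among these were Hgf (3.46), Egf (3.49), Pdgfd (3.39) and Fgf1 (3.31). Changes of genes so dim would hardly be seen, so the count and the median do not show that they were steady.

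**Figure D3:**
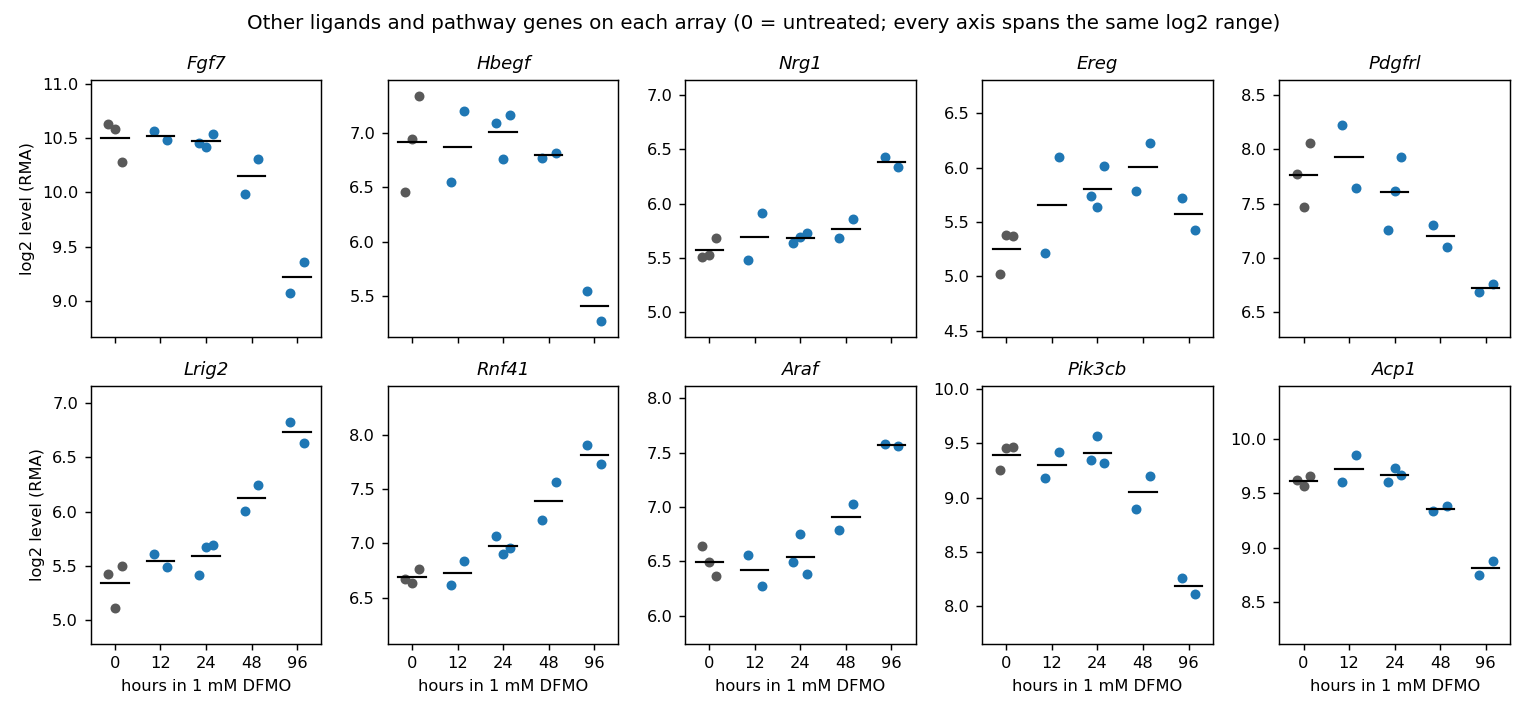
Log2 level of 10 named pathway genes on each of the 12 arrays (points; grey, untreated; blue, DFMO) by hours in DFMO, with group means as bars and the same log2 span in every panel. Fgf7, Hbegf, Pdgfrl, Pik3cb and Acp1 are lowest on the 2 arrays of 96 h, and Nrg1, Lrig2, Rnf41 and Araf are highest there.

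Among 17 co-receptors and ligand-processing genes, 1 rose and 2 fell at 96 h, beside 11.8% and 10.1% of all genes. Kl (untreated mean 3.42), Klb (3.35), St14 (3.59), Hgfac (3.57), Spint1 (3.70), Spint2 (3.76) and Fgfbp1 (3.63) lay near background, where changes would hardly be seen. Adam10, a membrane protease that releases ligands of the EGF receptor, had log2 levels of 9.42, 9.36 and 9.39 untreated, 9.07 and 9.05 at 48 h, and 8.94 and 9.02 at 96 h. It fell by 0.41 ± 0.06 at 96 h (limma adjusted p = 0.000640) and by 0.33 ± 0.06 at 48 h (0.0107), where the call was lost without 48 h replicate 1 (0.0728), without 48 h replicate 2 (0.0791) and with trend and robust moderation (0.0765). Plau, urokinase, a protease that can activate hepatocyte growth factor, fell by 0.79 ± 0.18 at 96 h (adjusted p = 0.0121), from levels of 6.44 to 6.58 untreated to 5.66 and 5.78. That call was lost without 96 h replicate 1 (0.0895) and without 96 h replicate 2 (0.0505). Neither Sdc4, a heparan sulfate proteoglycan (-0.26, adjusted p = 0.147), nor Fgfbp3, a secreted FGF-binding protein (0.63, 0.0803), passed. The gene that rose was Nrp1, a co-receptor outside the naming rule and named after its values were seen, at 0.64 ± 0.18 (adjusted p = 0.0324). Its call was lost without untreated replicate 1 (0.100) or 2 (0.0899), without 96 h replicate 1 (0.187) or 2 (0.0925) and with all clusters tested together (0.0507). The count of called genes in this list was 1 without 96 h replicate 1 and 1 without 96 h replicate 2, and 5 with the replicate block.

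Of 28 adaptors and kinases of the cascade measured, 7 rose and 3 fell at 96 h, beside 11.8% and 10.1% of all genes. Pik3cb, a catalytic subunit of PI3-kinase, had log2 levels of 9.25, 9.46 and 9.47 untreated, 8.90 and 9.20 at 48 h, and 8.26 and 8.11 at 96 h. It fell by 1.21 ± 0.12 at 96 h (2.31-fold, limma adjusted p = 0.000106), and both arrays of either late time lay below all untreated ones. Araf, a kinase that acts between Ras and MEK, had levels of 6.64, 6.49 and 6.36 untreated, 6.79 and 7.03 at 48 h, and 7.58 and 7.56 at 96 h. It rose by 1.07 ± 0.13 (2.10-fold, adjusted p = 0.000323). Sos2, an exchange factor that loads Ras with GTP, rose by 0.62 ± 0.11 (adjusted p = 0.00362). Fyn, a Src family kinase, rose at 48 h by 0.39 ± 0.07 (adjusted p = 0.0110) and had a change of 0.19 at 96 h (0.0817). The Fyn call was lost without 48 h replicate 1 (0.103), with only the 2 groups in the fit (0.0517) and with trend and robust moderation (0.0545). The count of called genes at 96 h was 4 without replicate 1 and 5 without replicate 2 of that group.

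Among 20 genes of receptor turnover and dephosphorylation, 7 rose and 5 fell at 96 h, beside 11.8% and 10.1% of all genes. Usp8, a deubiquitinase that acts on endocytosed receptors, had log2 levels of 8.30, 8.21 and 8.23 untreated, 8.45 and 8.48 at 48 h, and 8.92 and 8.89 at 96 h. It rose by 0.66 ± 0.05 at 96 h (1.58-fold, limma adjusted p = 1.79e-05). A smaller rise of Usp8 at 48 h (0.22) was also called. That call was lost in several alternatives, among them the filter on dim genes (adjusted p = 0.167), only the 2 groups fitted (0.0921) and trend and robust moderation (0.269). Rnf41, a ubiquitin ligase of Erbb3, had levels of 6.67, 6.63 and 6.76 untreated, 7.21 and 7.56 at 48 h, and 7.90 and 7.73 at 96 h. It rose by 1.13 ± 0.11 at 96 h (2.19-fold, adjusted p = 8.86e-05) and by 0.70 ± 0.11 at 48 h (0.00839). Lrig2, a membrane protein of the Lrig family whose member Lrig1 restrains receptor kinases, had levels of 5.43, 5.11 and 5.50 untreated, 6.01 and 6.25 at 48 h, and 6.83 and 6.63 at 96 h. It rose by 1.38 ± 0.13 at 96 h (2.60-fold, adjusted p = 7.88e-05) and by 0.78 ± 0.13 at 48 h (0.0110). Acp1, a small tyrosine phosphatase that acts on the PDGF receptor, had levels of 9.62, 9.57 and 9.66 untreated, 9.34 and 9.38 at 48 h, and 8.75 and 8.88 at 96 h, and fell by 0.80 ± 0.08 (1.74-fold, adjusted p = 7.74e-05). These values are of the brightest of 5 clusters that carry the symbol of Acp1 alone. The 48 h calls of Rnf41 and Lrig2 were lost without 48 h replicate 2 (adjusted p = 0.0601 and 0.0933), and the count at 96 h was 7 without 96 h replicate 1.

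Over the 5 lists together, 16 of 106 genes rose and 13 fell at 96 h, with a median change of 0.00, beside 11.8% and 10.1% of all genes. These lists were put together with earlier results of the same arrays known. The 29 calls became 15 without 96 h replicate 1 and 18 without 96 h replicate 2. Calls over all genes also became fewer without either of these arrays. At 48 h 4 rose and 4 fell, beside 5.82% of all genes.

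**Figure D4:**
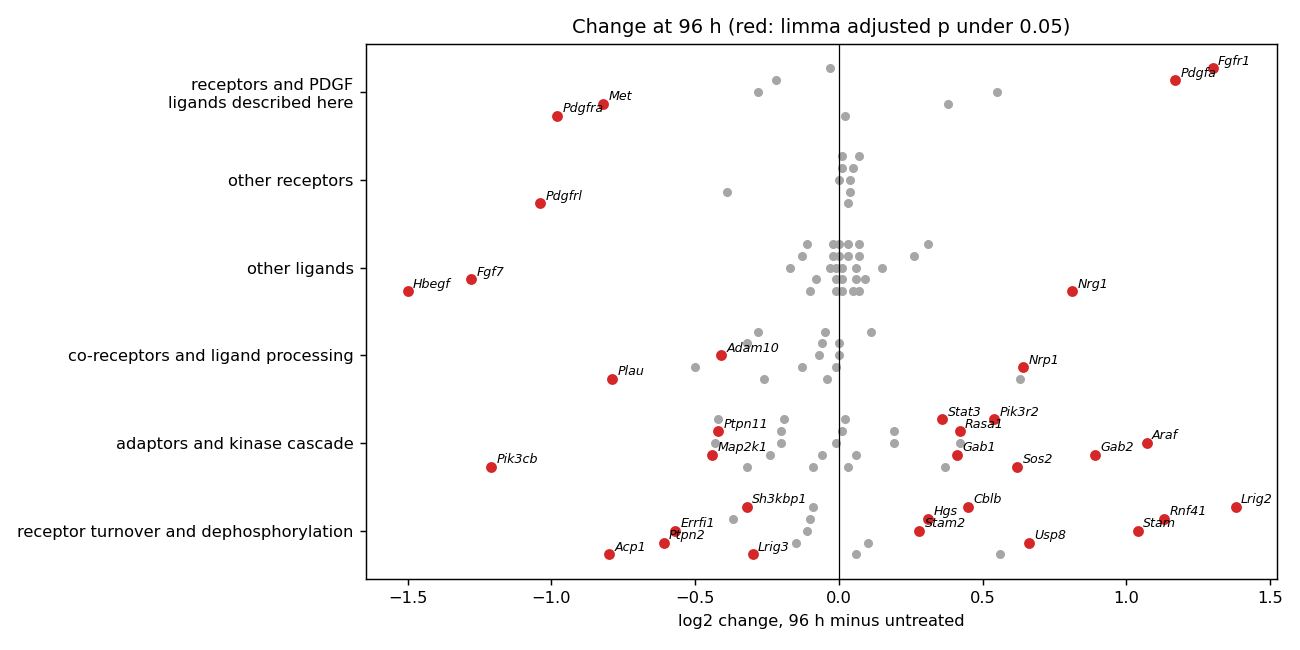
Log2 change at 96 h against untreated cells of the 10 genes described here and of 106 other genes in 5 pathway lists (points; red, limma adjusted p under 0.05, with the gene's symbol). Red points lie on both sides of 0 among the 10 genes and in 4 of the lists, and among the other receptors the only red point is Pdgfrl at -1.04.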

How the data were processed

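The deposited table holds log2 values, 1 per transcript cluster and array, which the authors obtained by RMA in Partek (versions not given), per the submitters' processing notes. RMA leaves background in the values, so changes of dim genes come out too small, and quantile normalisation would hide a shift of all genes. Clusters were named through the platform annotation and the RefSeq table of GRCm38.p6. Of 35399 clusters 21789 had 1 symbol, and the highest-mean cluster of each gene was kept (19938 genes, no filter on dim genes). One limma 3.58.1 model (R 4.3.3) with 5 group means took in the 12 arrays (two-sided, Benjamini-Hochberg adjusted over all genes, called under 0.05). The script was tested on simulated data. Figures used matplotlib 3.10.9 and pandas 2.3.3 in Python 3.11.15.

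The members and lists were chosen with earlier results of these data known. Named were all members, the 4 genes of each of 5 pathway lists with the smallest F test p, and the 3 genes most correlated with each of the 3 members of smallest F test p. Marker genes were named where a level is given, and other names are marked. Alternatives covered scaling, a filter (log2 of at least 5 in 2 arrays), cluster choice, variance model, array weights, the replicate block and each array left out.

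Replicate numbers of untreated and 24 h arrays pair them by the rule used (deviations of same-number arrays correlated at 0.153, 0.287 and 0.581, all over 0.1), though unlike numbers reached 0.235. The labels name no shared batch, and the other times share too few numbers for the rule. There same-number arrays correlated at 0.189 and -0.255 (12 h), -0.075 and 0.157 (48 h) and -0.136 and -0.08 (96 h). Unlike numbers reached 0.318 at 12 h, so a pairing at these times is not shown and the replicate block is an alternative only. The number of arrays limits the precision, and p-values measure the spread between these arrays, which may be technical in part. All value columns had a sample.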

Additional observations from a re-analysis of the deposited data

Results flagged for a closer look

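For 2 genes the change at 96 h differed from the change at 48 h by the test of the difference itself. For Pdgfa the 96 h change was larger by 0.80 (limma adjusted p = 0.0106), with levels of 7.54 and 7.62 at 48 h and 8.52 and 8.24 at 96 h. For Met the difference was -0.52 (adjusted p = 0.0295), with 9.17 and 9.45 against 8.85 and 8.73. Both rest on 2 arrays a group, and each was lost without some single arrays, as given with the genes above.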

How the results depend on the processing

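The 96 h changes of Fgfr1, Pdgfa and Met kept their direction and their call in all alternatives tried, and that of Pdgfra in all but 2. With 1 array left out, members called numbered 3 to 5 at 96 h, 0 to 1 at 48 h, 0 to 4 from 48 h to 96 h and 2 to 5 by the F test. Over all genes these ranges were 3039 to 4477, 375 to 1265, 748 to 1849, 67 to 418 from 24 h to 48 h (333 with all arrays) and 2023 to 3577 by the F test. In the 5 pathway lists they were 15 to 31 at 96 h and 2 to 10 at 48 h. Members called at 48 h became 2 with array weights, 1 with the filter on dim genes, 1 with the replicate block and 1 without the 3 arrays that deviated together. From 48 h to 96 h they became 1 with all clusters tested together, 4 with array weights and 4 with the replicate block. Genes called at 48 h became 2194 with array weights. With all 35399 clusters tested together, 11 clusters were called at 24 h. From 24 h to 48 h 217 clusters were called in that fit, and genes called became 521 with array weights and 61 with only the 2 groups fitted. Pathway genes called at 48 h became 3 with trend and robust moderation, 13 with array weights and 5 without the 3 arrays.

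Some uncalled changes turned their sign. Not all of them were near 0 in the main fit, where Pdgfra had -0.25 from 48 h to 96 h. Pdgfrb and Erbb2 had -0.23 and -0.21 at 12 h. With array weights the changes that turned were Pdgfa at 12 h (0.06), Erbb2 and Pdgfb at 24 h (-0.02 and -0.01) and Egfr at 96 h (-0.05). With the replicate block they were Pdgfa at 12 h (0.00), Pdgfrb at 48 h (0.01), Egfr at 96 h (-0.04), and Egfr and Pdgfc from 24 h to 48 h (-0.03 and 0.04). With centred arrays they were Pdgfa at 12 h (0.00) and Erbb2 and Pdgfrb at 48 h (0.01 each), and with repeated quantile normalisation Pdgfrb at 48 h (0.00). Without the 3 arrays they were Erbb2, Fgfr1, Fgfr2 and Pdgfrb at 12 h (0.03, 0.14, 0.09 and 0.01), Met and Pdgfb at 24 h (0.02 and -0.03), Egfr at 96 h (-0.07), and Egfr and Pdgfc from 24 h to 48 h (-0.01 and 0.01). With 1 array left out, ranges at 12 h were -0.13 to 0.09 for Egfr, -0.54 to 0.12 for Erbb2, -0.36 to 0.29 for Fgfr1, -0.28 to 0.05 for Fgfr2, -0.15 to 0.12 for Pdgfa, -0.02 to 0.17 for Pdgfc, -0.17 to 0.08 for Pdgfra and -0.47 to 0.00 for Pdgfrb. At 24 h they were -0.07 to 0.10 for Erbb2, -0.02 to 0.23 for Fgfr1, -0.14 to 0.02 for Met, -0.04 to 0.14 for Pdgfa and -0.02 to 0.04 for Pdgfb. At 48 h they were -0.11 to 0.03 for Erbb2, -0.10 to 0.43 for Fgfr2 and -0.05 to 0.00 for Pdgfrb, and at 96 h -0.07 to 0.11 for Egfr and -0.06 to 0.00 for Pdgfb. From 24 h to 48 h they were -0.06 to 0.14 for Egfr, -0.12 to 0.02 for Erbb2, -0.44 to 0.09 for Fgfr2, -0.12 to 0.01 for Pdgfc and -0.02 to 0.16 for Pdgfrb, and from 48 h to 96 h -0.54 to 0.04 for Pdgfra. The cause of these shifts was not tested. A lone array left in a group was assumed to vary like the other groups.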

Other observations

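Some pathway genes outside the naming rule, chosen after their values were seen, also passed the test at 96 h. Stam, which sorts ubiquitinated receptors on endosomes and binds Usp8, had log2 levels of 7.10, 7.04 and 7.33 untreated and 8.30 and 8.09 at 96 h, and rose by 1.04 ± 0.13 (limma adjusted p = 0.000390). Gab2, a docking protein of receptor kinases, rose by 0.89 ± 0.21 (adjusted p = 0.0112), with 5.88 and 5.50 at 96 h against 4.58 to 4.97 untreated. Errfi1, an inhibitor that binds the EGF receptor kinase, fell by 0.57 ± 0.13 (adjusted p = 0.00952), with 6.27 and 6.37 against 6.78 to 6.96. Hgs (means 7.87 untreated and 8.17 at 96 h) and Stam2 (8.67 and 8.95) also passed, but lost their calls in several alternatives. Among these were all clusters tested together (limma adjusted p = 0.0581 and 0.0640) and trend and robust moderation (0.110 and 0.115). Without 96 h replicate 1 the calls of Gab2 (adjusted p = 0.113) and Errfi1 (0.0781) were lost, and that of Stam held in all alternatives tried.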
